A study of Mus musculus with 6 samples.

Results

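The genes described here encode proteins that visceral endoderm secretes or takes up, the yolk sac type of secretory genes: Ttr, Afp, Apoa1, Apoa2, Apob, Apom, Rbp4, Trf, Spink1 and Cubn. Every probe set annotated to 1 of these 10 genes alone was taken, which gave 22 probe sets for 9 genes, of 45037 probe sets and 18193 genes on the array. The only Trf probe set is also annotated to Srprb, so transferrin has no value. Of the 22 probe sets, 19 passed the filter on dim signals, at least 1 for each of the 9 genes.

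The samples were embryoid bodies, aggregates of differentiating mouse embryonic stem (ES) cells, grown from the Hoxb4i line, in which doxycycline switches on an integrated HOXB4 cassette. HOXB4 is a homeodomain transcription factor that raises the output of blood progenitors in such cultures. Each of 3 experiments, lettered A, B and C, gave 1 array without doxycycline and 1 array with 2 µg/ml doxycycline from day 4 for 48 hours, and all 6 were collected on day 6, so that each condition has 3 arrays and each experiment 2. All groups shared the line, the seeding density of 3500 cells/ml and a medium with serum and 200 µg/ml transferrin. No sample is from a line without the cassette, so the drug and HOXB4 cannot be told apart here. RNA came from whole embryoid bodies, so fewer cells of a type and less RNA per cell cannot be told apart either.

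Visceral endoderm is the polarised epithelium that wraps the early embryo and later lines the yolk sac. Before the liver exists it makes many of the proteins that the liver later puts into plasma: carriers of retinol and thyroid hormone, apolipoproteins that package lipid, and alpha-fetoprotein. On its outer face it also takes up maternal proteins through the receptors cubilin and megalin. In embryoid bodies such cells form the outer layer and have been used as a stand-in for the yolk sac endoderm. Their secretory genes are known targets of the transcription factors HNF4A, HNF1, FOXA and GATA.

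The array values were MAS5 signals, scaled so that the mean of each array without its top and bottom 2% was 500.003, and their medians ran from 92.0 to 108.6. The array of A without doxycycline stood apart. Its 3′ to 5′ ratio for Actb was 2.88 against 1.26 to 1.48 on the other 5 arrays, and for Gapdh 1.08 against 0.834 to 0.903. It held the highest or lowest value at 53.8% of tested probe sets, against 17.6% to 39.7% for the others. Hoxb4 itself was not called with doxycycline on either probe set: 1451761_at differed by a log2 value of 0.57 (95% confidence interval -0.37 to 1.50) and 1460379_at by 0.86 (interval -0.60 to 2.33). It was higher with doxycycline in all 3 experiments on both.

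Start-site sequences of the members were read from RefSeq (mouse build GRCm38.p6) for the letters of the factors named above. Any part of those factors in the members' differences was not tested. Read here were 9 windows for 7 of the 10 genes. No window of Ttr, Spink1 or Trf was read, so the counts below leave these genes out. The 250 bases before each start were searched on both strands. The letters were GTTAATNAT for HNF1, AAAGTCC for HNF4 factors, either TGTTTAC or its close variant TGTTTGC for FOXA factors, and AGATAA for the GATA factors, and no matches overlapped. FOXA letters stood in 5 windows, 1 each of Afp, Apoa1, Apoa2, Apob and Rbp4, against 7.29% of all 32851 windows. These 5 are shown because they carry that match, 5′ to 3′ on the gene's strand and ending at the base before the start, with matched letters in capitals. They lie at chr5:90490464-90490713 (Afp, plus strand), chr9:46228380-46228629 (Apoa1, plus), chr1:171224804-171225053 (Apoa2, plus), chr12:7977427-7977676 (Apob, plus) and chr19:38125322-38125571 (Rbp4, minus).
Afp: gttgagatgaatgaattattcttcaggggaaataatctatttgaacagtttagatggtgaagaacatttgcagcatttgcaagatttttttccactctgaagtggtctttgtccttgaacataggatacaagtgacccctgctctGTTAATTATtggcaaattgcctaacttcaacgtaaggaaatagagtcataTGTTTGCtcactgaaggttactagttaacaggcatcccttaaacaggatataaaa
Apoa1: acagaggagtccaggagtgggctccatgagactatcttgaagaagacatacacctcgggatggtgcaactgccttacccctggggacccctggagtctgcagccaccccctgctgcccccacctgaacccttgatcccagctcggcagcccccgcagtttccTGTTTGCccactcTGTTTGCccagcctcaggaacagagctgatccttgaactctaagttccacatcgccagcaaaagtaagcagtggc
Apoa2: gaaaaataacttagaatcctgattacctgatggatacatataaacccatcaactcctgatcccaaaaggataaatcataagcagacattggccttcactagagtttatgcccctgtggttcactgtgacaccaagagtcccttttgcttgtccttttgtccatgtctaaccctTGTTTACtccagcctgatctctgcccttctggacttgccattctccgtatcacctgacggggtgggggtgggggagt
Apob: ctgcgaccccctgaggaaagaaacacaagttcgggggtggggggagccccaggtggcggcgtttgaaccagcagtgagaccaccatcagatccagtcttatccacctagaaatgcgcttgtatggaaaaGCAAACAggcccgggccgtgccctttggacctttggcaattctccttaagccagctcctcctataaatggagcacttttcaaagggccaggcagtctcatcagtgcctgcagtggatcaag
Rbp4: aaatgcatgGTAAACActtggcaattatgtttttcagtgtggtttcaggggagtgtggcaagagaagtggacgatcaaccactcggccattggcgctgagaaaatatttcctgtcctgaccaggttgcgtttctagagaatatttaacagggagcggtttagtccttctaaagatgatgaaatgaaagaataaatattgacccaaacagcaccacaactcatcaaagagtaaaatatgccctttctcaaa
In the Afp window the HNF1 letters begin at position -105 and the FOXA letters at -55, counted back from the start. Apoa1 has FOXA letters at -88 and again at -75. The Apoa2 match begins at -77. The Apob match at -121 and the Rbp4 match at -241 are on the opposite strand. HNF1 letters stood in 1 member window (0.737% of all windows) and HNF4 letters in 1, at -169 of the second Apoa2 window (3.58% of all windows). GATA letters stood in 0 of the 9 (9.99% of all windows). The second Rbp4 window and those of Apom and Cubn held none of these letters. A match is a run of letters and not a bound site.

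The genes of this group differed mainly by experiment and not by doxycycline. The retinol and thyroid hormone carriers Ttr and Rbp4, the trypsin inhibitor Spink1 and the apolipoproteins Apoa1 and Apob were lower in C than in B, by 1.87 to 6.28 on the log2 scale. Ttr, Rbp4, Spink1 and Apoa1 were also higher in B than in A. The brightest Apoa1 probe set passed the filter on dim signals only through B, so its part in both comparisons is no support. Afp followed another order, with its highest signals in A. Apoa2, Cubn and the brighter probe set of Apom were not called between any experiments. Beside each difference between experiments stands its standard error (SE), on the scale log2(signal + 18.8). The adjusted p is limma's over all 27022 tested probe sets, and called means an adjusted p below 0.05. Each experiment has 2 arrays, 1 with and 1 without doxycycline, which share the experiment, so the p measures only the spread left after a doxycycline term.

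**Figure D1:**
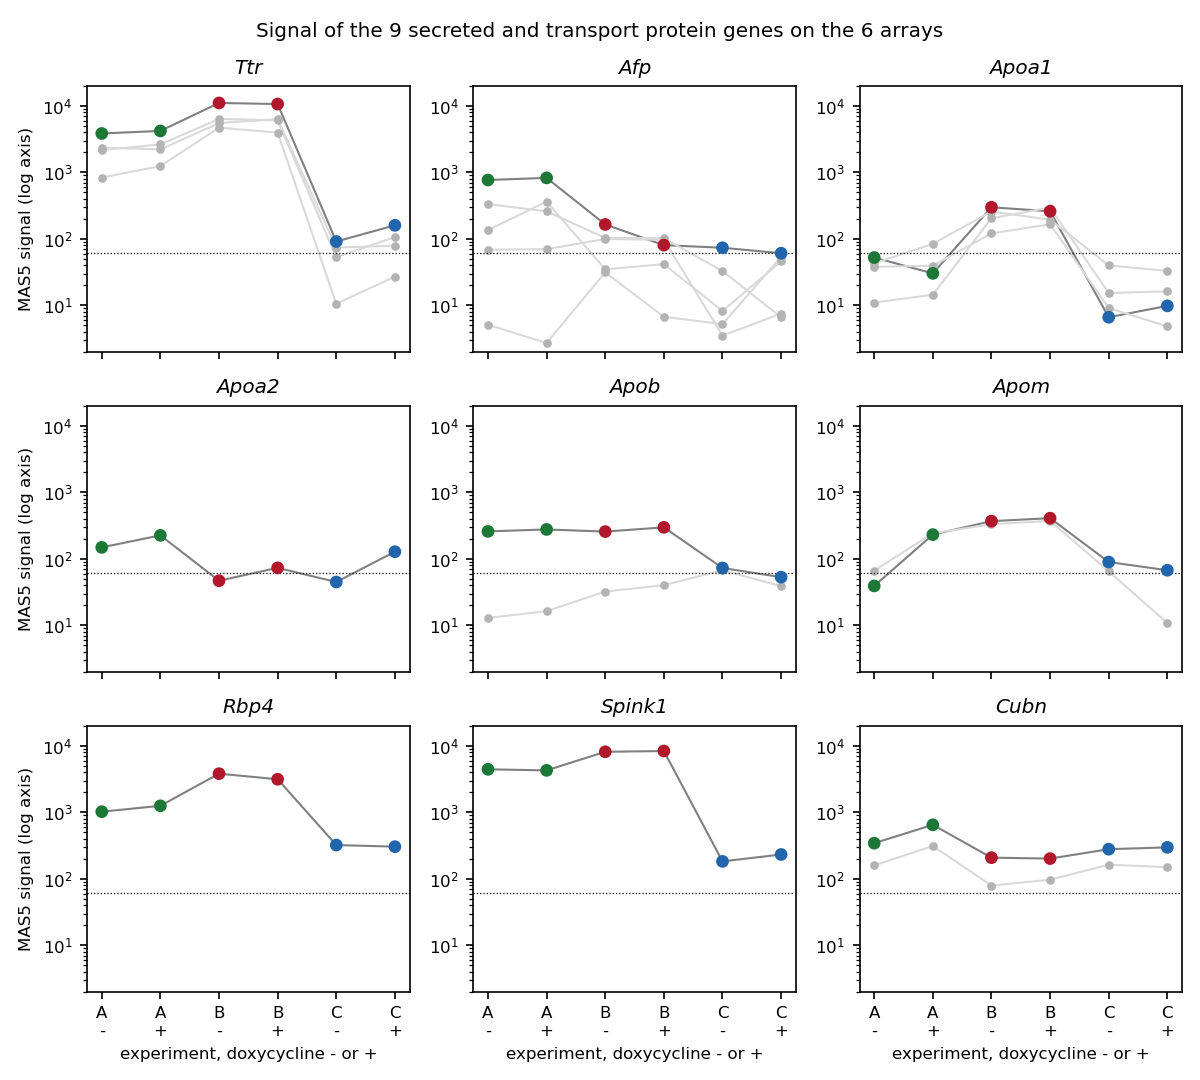
MAS5 signal on a log axis of the 9 measured genes on the 6 arrays, by experiment (A green, B red, C blue) and doxycycline (- or +). Large points are the probe set with the highest mean for the gene, small grey points its other probe sets, and the dotted line is the filter at a mean signal of 60.5; Ttr, Rbp4 and Spink1 are highest in B and lowest in C.

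Transthyretin, encoded by Ttr, carries thyroid hormone and the retinol-binding protein in plasma. Its brightest probe set, 1454608_x_at, had a signal of 3858.0 in A without and 4214.1 with doxycycline. In the same order it read 11110.3 then 10701.3 in B and 91.2 then 159.7 in C. The order was B over A over C, with no overlap between experiments. C was lower than B by a log2 difference of -6.28 ± 0.22 (SE; adjusted p = 2.1e-05 by limma), and the mean signal of B was 86.9 times that of C and 2.70 times that of A. B was above A by 1.43 ± 0.22 (adjusted p = 0.0177 by limma), and C below A by -4.85 ± 0.22 (adjusted p = 0.000209 by limma). The gene's 4 probe sets moved alike. All 4 were called lower in C than in B (-6.89 to -5.96) and higher in B than in A (1.36 to 2.07). The dimmest of them, 1451580_a_at, read 837.6 then 1243.7 in A, 4719.3 then 3977.2 in B, and 10.5 then 27.1 in C.

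Rbp4 encodes the retinol-binding protein that travels in plasma bound to transthyretin. Its single probe set, 1426225_at, read 1024.7 then 1256.7 in A, 3829.7 then 3155.4 in B, and 322.5 then 305.1 in C, the value with doxycycline coming second throughout. The order was again B over A over C without overlap. The log2 difference of C from B was -3.39 ± 0.22 (adjusted p = 0.000148 by limma), and the mean signal of B was 11.1 times that of C. B exceeded A by 1.60 ± 0.22 (adjusted p = 0.0127 by limma), and C was under A by -1.79 ± 0.22 (adjusted p = 0.00733 by limma). Without the intensity trend in the variance the C against A difference was no longer called (adjusted p = 0.0585 by limma).

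Spink1 encodes a secreted inhibitor of trypsin, known from pancreas and gut and also made by yolk sac endoderm. Probe set 1415938_at read 4451.5 then 4294.4 in A, 8173.7 then 8397.8 in B, and 183.1 then 232.5 in C, in that order. Within each experiment the arrays lay close together, and the experiments did not overlap. C was lower than B by -5.20 ± 0.18 (adjusted p = 2.1e-05 by limma) and lower than A by -4.28 ± 0.18 (adjusted p = 0.000209 by limma). The mean signal of B was 39.9 times that of C and 1.89 times that of A, a log2 difference from A of 0.92 ± 0.18 (adjusted p = 0.0392 by limma). Experiment took up 99.8% of this gene's sum of squares over the 6 arrays.

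Among the apolipoproteins, Apoa1, the main protein of high-density lipoprotein, followed the same order on most of its probe sets. Its leading probe set, 1455201_x_at, read 52.3 then 30.2 in A, 298.6 then 259.9 in B, and 6.6 then 9.8 in C. Only in B was it above the filter signal, so its place among the tested probe sets rests on B. The same goes for 1419233_x_at (11.0 then 14.4 in A, 15.3 then 16.2 in C) and 1419232_a_at (38.0 then 39.4 in A, 9.1 then 4.8 in C). 1438840_x_at was above it in A with doxycycline too (84.2). The log2 difference of C from B was -3.46 ± 0.46 (adjusted p = 0.00312 by limma), and all 4 Apoa1 probe sets were called lower in C than in B (-3.46 to -2.14). The calls of the probe sets that passed the filter only through B are no support. The C signals of the leading probe set are below the offset of 18.8, which therefore sets the size: with an offset of 1 the difference was -4.95. B was above A by 2.33 ± 0.46 (adjusted p = 0.0368 by limma), and 2 of the 4 probe sets were called in that direction (1.48 to 3.08 over the 4). Both of these, the leading one and 1419233_x_at, passed the filter only through B. The call of the leading probe set was lost with an offset of 1 (adjusted p = 0.0987) and with no filter (adjusted p = 0.0575, both by limma). C and A were not told apart (-1.13 ± 0.46, adjusted p = 0.159 by limma), and 1419233_x_at had the opposite sign there, at 0.14.

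Apob encodes the large structural protein of the lipoproteins that yolk sac, gut and liver export. Its probe set 1455593_at read 259.0 then 277.0 in A, 257.2 then 298.0 in B, and 72.8 then 53.0 in C. A and B overlapped, and both lay above C. C was below B by -1.87 ± 0.32 (adjusted p = 0.00979 by limma) and below A by -1.82 ± 0.32 (adjusted p = 0.0213 by limma), while B minus A was 0.04 ± 0.32 (adjusted p = 0.946 by limma). The C against B call was lost when single arrays were left out: B with doxycycline (adjusted p = 0.120), B without it (0.0525) or C with it (0.0908). Each of these p-values is by limma. The C against A call was lost when C with doxycycline (adjusted p = 0.113) or C without it (0.0733) was left out and when the variance had no intensity trend (0.0576, each by limma). The gene's other probe set, 1457554_at, did not pass the filter. It read 12.9 to 40.1 over A and B and 67.2 and 38.8 in C, the opposite order.

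Apoa2, a further protein of high-density lipoprotein, did not follow Apoa1. Probe set 1417950_a_at read 148.7 then 225.8 in A, 46.8 then 73.2 in B, and 44.8 then 128.0 in C. Its A signals were the highest, and B and C overlapped. The log2 difference of B from A was -1.38 ± 0.40 (adjusted p = 0.0933 by limma) and that of C from B 0.31 ± 0.40 (adjusted p = 0.685 by limma), with an interval of -0.60 to 1.23.

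Apom encodes a lipocalin carried on high-density lipoprotein. Probe set 1419096_at read 39.1 then 231.7 in A, 369.5 then 409.5 in B, and 89.5 then 67.3 in C. B was highest, and the A arrays lay on either side of the C arrays. C was under B by -2.08 ± 0.56, which was not called (adjusted p = 0.0568 by limma), whereas the second probe set, 1419095_a_at, was called (-2.90 ± 0.65, adjusted p = 0.0298 by limma). That probe set read 66.3 then 242.8 in A, 332.0 then 373.0 in B, and 64.8 then 10.8 in C. With quantile normalization the first was called too (-2.25, adjusted p = 0.0436 by limma). The differences from A depended on which A array was kept. B minus A was 1.76 with both, 0.66 when A without doxycycline was left out and 2.86 when A with it was left out. C minus A was -0.32, -1.42 and 0.79 in turn.

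Alpha-fetoprotein, encoded by Afp, is the main plasma protein of the embryo and a classic visceral endoderm product. Probe set 1416645_a_at read 768.8 then 827.5 in A, 164.6 then 80.4 in B, and 73.4 then 60.8 in C. The order was A over B over C, unlike that of Ttr. B was below A by -2.60 ± 0.34 (adjusted p = 0.0114 by limma), and C below A by -3.25 ± 0.34 (adjusted p = 0.00405 by limma). The mean signal of A was 6.52 times that of B and 11.9 times that of C, while C minus B was -0.65 ± 0.34 (adjusted p = 0.292 by limma). Only that probe set was called between B and A, and the call was lost when B with doxycycline was left out (adjusted p = 0.0534) and when the variance had no intensity trend (adjusted p = 0.0567, both by limma).

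The other Afp probe sets were dimmer. 1436879_x_at read 334.0 then 259.2 in A, 103.3 then 102.1 in B, and 32.7 then 6.6 in C, and was called lower in C than in B (-1.75, adjusted p = 0.0375 by limma). 1416646_at read 135.2 then 363.9 in A, 34.8 then 41.6 in B, and 8.2 then 45.8 in C. Both held their highest signals in A, but 1416646_at was above the filter signal of 60.5 only there. Its place among the tested probe sets rests on A, so its order is no support. The last pair did not pass the filter and had no A excess over B. 1436881_x_at read 68.7 then 69.9 in A, 99.5 then 96.7 in B, and 3.5 then 7.5 in C, the order of Ttr. Tested with no filter, its C minus B was -2.27 (adjusted p = 0.0303 by limma). 1436880_at read 5.1 then 2.7 in A, 31.3 then 6.7 in B, and 5.2 then 53.6 in C.

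Cubilin, encoded by Cubn, is the uptake receptor of the group and binds apolipoprotein A-I, transferrin and vitamin-B12-carrying intrinsic factor. Probe set 1452270_s_at read 344.0 then 650.2 in A, 208.3 then 201.7 in B, and 279.3 then 297.7 in C. A was highest and B lowest, without overlap. None of these differences was called: C minus B was 0.46 ± 0.31 (adjusted p = 0.427 by limma) with an interval of -0.26 to 1.18, and B minus A was -1.14 ± 0.31 (adjusted p = 0.0842 by limma). Its second probe set, 1426990_at, was also lowest in B, but A and C overlapped, with 159.5 then 311.9 in A, 79.2 then 96.9 in B, and 163.3 then 149.6 in C. With A without doxycycline left out, B minus A was -1.57 and C minus A -1.11. With A with doxycycline left out they were -0.71 and -0.25. In each of these fits A rests on 1 array, so no calls are given.

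**Figure D2:**
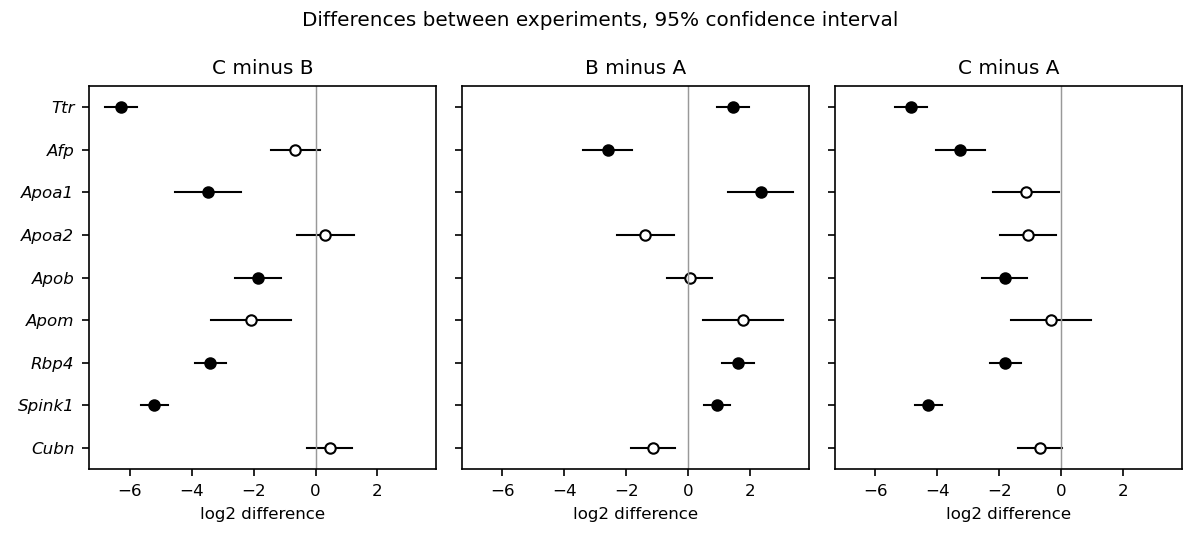
Differences between experiments in log2 units for the leading probe set of each gene, with 95% confidence intervals; filled points have an adjusted p below 0.05 by limma. C minus B runs from -6.28 for Ttr to 0.46 for Cubn, and Afp alone is called lower in B than in A.

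Counted over genes, 6 of the 9 differed between the experiments by the F test (Ttr, Afp, Apoa1, Apob, Rbp4 and Spink1), against 14.0% of the 12452 genes tested. C was called lower than B for 5 of 9 (6.94% of all genes) and higher for 0 (5.78%). B was called higher than A for 4 (2.76% of all genes) and lower for 1, Afp (2.37%). C was called lower than A for 5, Ttr, Afp, Apob, Rbp4 and Spink1 (4.64% of all genes), and higher for 0 (2.77%). Apoa1, in the F test count and in the counts of C below B and of B above A, passed the filter only through B, so its part in them is no support. The 4 calls of B above A are the least firm: 0 were left without either array of B, and 0 without the intensity trend. With the array of A without doxycycline left out, A rests on 1 array. The share of all genes called was not counted for that fit, so its calls among the members are no support. They enter only the ranges given below for 1 array left out.

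The members' median log2 difference was -2.08 for C minus B, 0.92 for B minus A and -1.79 for C minus A, against 0.07, -0.06 and 0.01 over all genes. Their range over the 6 arrays ran from 1.60 for the narrowest to 6.66 for the widest member, with a median of 3.41 against 0.93 over all genes. A range of at least 5 was reached by 0.426% of all genes. The share of a gene's sum of squares between experiments had a median of 98.1% over the members and 69.6% over all genes. Over the 6 arrays, which share an experiment in pairs, Ttr correlated with Spink1 at Pearson's r = 0.998, with Rbp4 at 0.96 and with Apob at 0.96, but with Apoa2 at 0.11 and with Cubn at -0.08. Apoa2 and Cubn correlated with each other at 0.83.

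Doxycycline gave no call among the members. In the comparison of the 3 arrays with and the 3 without doxycycline, 0 of 27022 probe sets and 0% of genes were called by limma, with or without the experiment letter as a block. An unadjusted p below 0.05 was found at 138 probe sets without the block and at 1065 with it. The smallest adjusted p for a member was 0.99996 without and 0.930 with the block, both by limma. No member had its 3 doxycycline arrays all above or all below the other 3, which 2.21% and 1.73% of genes did.

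These intervals were wide. The half-width of a member's 95% interval ran from 1.01 to 4.51 log2 units without the block and from 0.35 to 1.05 with it. For Ttr the 3 arrays without the drug averaged 5020 ± 5601 (SD, n = 3) and the 3 treated arrays 5025 ± 5317 (SD, n = 3), a log2 difference of 0.26 with an interval of -4.25 to 4.77. With the block that interval was -0.17 to 0.68. For Spink1 the blocked interval was -0.25 to 0.45 around 0.10, and for Rbp4 -0.44 to 0.39 around -0.02.

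**Figure D3:**
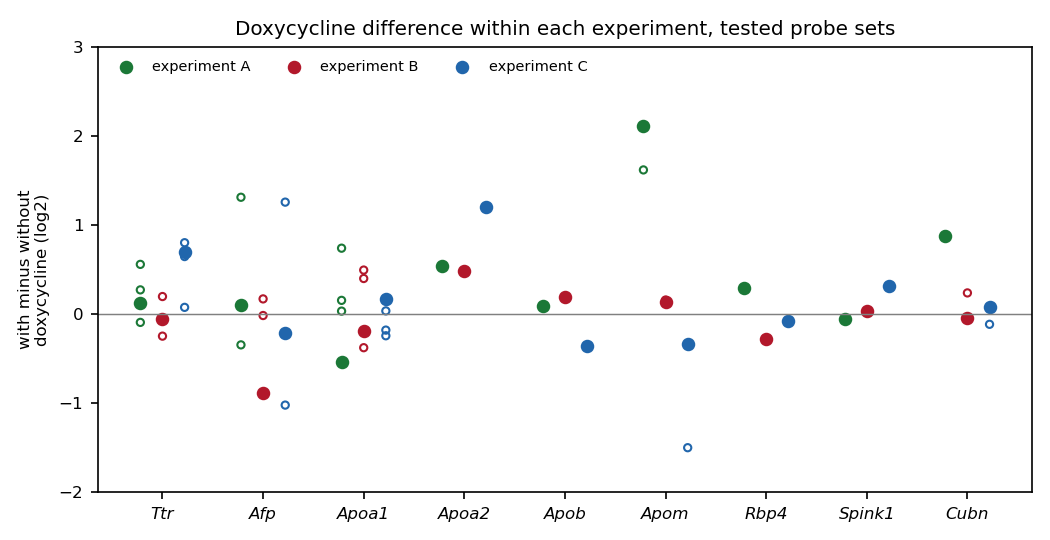
Log2 signal with minus without doxycycline within experiments A, B and C for each tested probe set; filled points are the leading probe set of a gene and open points its others. Apoa2 is above 0 in all 3 experiments, and the leading probe set of Apom spreads from -0.33 in C to 2.11 in A.

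Within an experiment the doxycycline difference rests on 1 array against 1, so the values are given without a test. By leading probe sets, Apoa2 was the only member with the same sign in all 3 experiments, at 0.55 in A, 0.49 in B and 1.21 in C, and 13.8% of all genes were higher with doxycycline in all 3. The untreated arrays averaged 80.1 ± 59.4 (SD, n = 3) and the treated ones 142.3 ± 77.3 (SD, n = 3), and they overlapped. The log2 difference was 0.75 (interval -0.49 to 1.99, unadjusted p = 0.201 by limma). With the block the unadjusted p was 0.0497 and the adjusted p 0.930, both by limma.

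The leading probe sets of the other members changed sign between experiments. Apom was 2.11 higher with doxycycline in A, where the array without the drug is the one that stood apart, 0.14 higher in B and lower in C (-0.33). Cubn was 0.88 higher in A, with -0.04 in B and 0.09 in C. Afp was lower in B (-0.89) and C (-0.21) and 0.10 higher in A. Other tested probe sets of Afp and Apoa1 differed from these: 1416646_at of Afp was higher with doxycycline in all 3, by 1.31, 0.17 and 1.26 (blocked unadjusted p = 0.0501, adjusted p = 0.930 by limma), and 1419233_x_at of Apoa1 by 0.16, 0.50 and 0.04. Ttr gave 0.13, -0.05 and 0.70, Rbp4 0.29, -0.28 and -0.08, and Spink1 -0.05, 0.04 and 0.32, in A, B and C. For Apoa1 the values were -0.54, -0.19 and 0.17, and for Apob 0.09, 0.20 and -0.35. By leading probe sets, 7 of the 9 were higher with doxycycline in A (47.8% of all genes), 4 in B (52.8%) and 5 in C (52.8%).

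Other genes of the same biology were read from fixed lists. Of 28 further plasma proteins, 26 had a probe set and 11 passed the filter; 3 were lower in C than in B and 0 higher, with a median log2 difference of -0.78 over the 11. Apoe, which directs lipoproteins to their receptors, read 5325.6 then 6677.8 in A, 8383.3 then 10183.1 in B, and 2855.6 then 2982.7 in C (C minus B -1.66, adjusted p = 0.000544 by limma). Apoc2, the activator of lipoprotein lipase, was lower by -2.11 (adjusted p = 0.0173 by limma). Cpn1, the small subunit of carboxypeptidase N, read 190.5 then 212.0 in A, 143.9 then 193.8 in B, and 4.7 then 5.4 in C (-2.96, adjusted p = 0.00334 by limma). Not called between C and B were Apoc1 (-0.78), the clotting factor F5 (-1.10) and prothrombin, F2 (-0.01). Between C and A 4 of the 11 were lower: Apoe, Apoc2, Cpn1 and Pla2g12b, the last named after its values were seen (-2.45, adjusted p = 0.0277 by limma). None of the 11 was called between B and A. Albumin, the plasma protein that follows alpha-fetoprotein in the liver, did not pass the filter on its mean signal. Alb read 39.1, 7.2, 62.3, 98.5, 60.8 and 53.4 over A, B and C (doxycycline second in each). Both B arrays and C without doxycycline were above the filter signal of 60.5.

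The receptors and enzymes that handle these cargoes did not move as 1 group. Of 16 listed, 13 had a probe set and 12 were tested; between C and B 2 were higher and 4 lower, with a median of -0.57. Amn, the membrane partner of cubilin, had its highest signals in A, like Cubn: 261.6 then 327.1 in A, 51.1 then 103.4 in B, and 84.7 then 131.5 in C (B minus A -1.75, adjusted p = 0.0352 by limma). Lrp2, which encodes megalin, was higher in C than in B by 1.06 (adjusted p = 0.0188 by limma), with 1876.1 and 1922.5 in C against 791.9 to 1126.9 elsewhere. Dab2, the endocytic adaptor of both receptors, was lower in C, by -1.68 (adjusted p = 0.00147 by limma). Stra6, the cell-surface receptor for retinol-binding protein, ran against its ligand: it read 7.4 and 8.7 in B and 140.7 and 236.6 in C (C minus B 2.91, adjusted p = 0.0065 by limma). Lpl, Scarb1 and Lrpap1 were the other genes called lower in C than in B, at -0.92, -0.98 and -0.94. Mttp, which loads lipid onto apolipoprotein B, was not called (-0.66, adjusted p = 0.177 by limma).

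Most tested genes for endoderm transcription factors were lower in C than in B. Of 15 listed, 13 had a probe set and 11 were tested; 7 were called lower in C than in B and 0 higher, with a median of -1.91. Gata6, needed to form primitive endoderm, read 926.2 then 1443.3 in A, 1870.0 then 1943.7 in B, and 147.4 then 166.7 in C (C minus B -3.45, adjusted p = 0.00019 by limma). Hnf4a, a direct activator of apolipoprotein genes, read 139.0 then 112.4 in A, 206.6 then 182.5 in B, and 9.0 then 18.8 in C (-2.72, adjusted p = 0.0061 by limma). Foxa1 (-2.42), Sox7 (-2.13), Sox17 (-2.01), Hhex (-1.91) and Gata4 (-1.90) made up the rest of the 7. Foxa2, which encodes a FOXA factor of early endoderm, had the order of Afp: 1020.9 then 1198.5 in A, 326.9 then 308.4 in B, and 166.1 then 174.2 in C. Its log2 difference of B from A was -1.74 (adjusted p = 0.0137 by limma), and that of C from B -0.83 (adjusted p = 0.0785 by limma). Sox7 was the only regulator called higher in B than in A (1.88, adjusted p = 0.0248 by limma). Nr5a2 and Prox1 were called in no comparison.

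**Figure D4:**
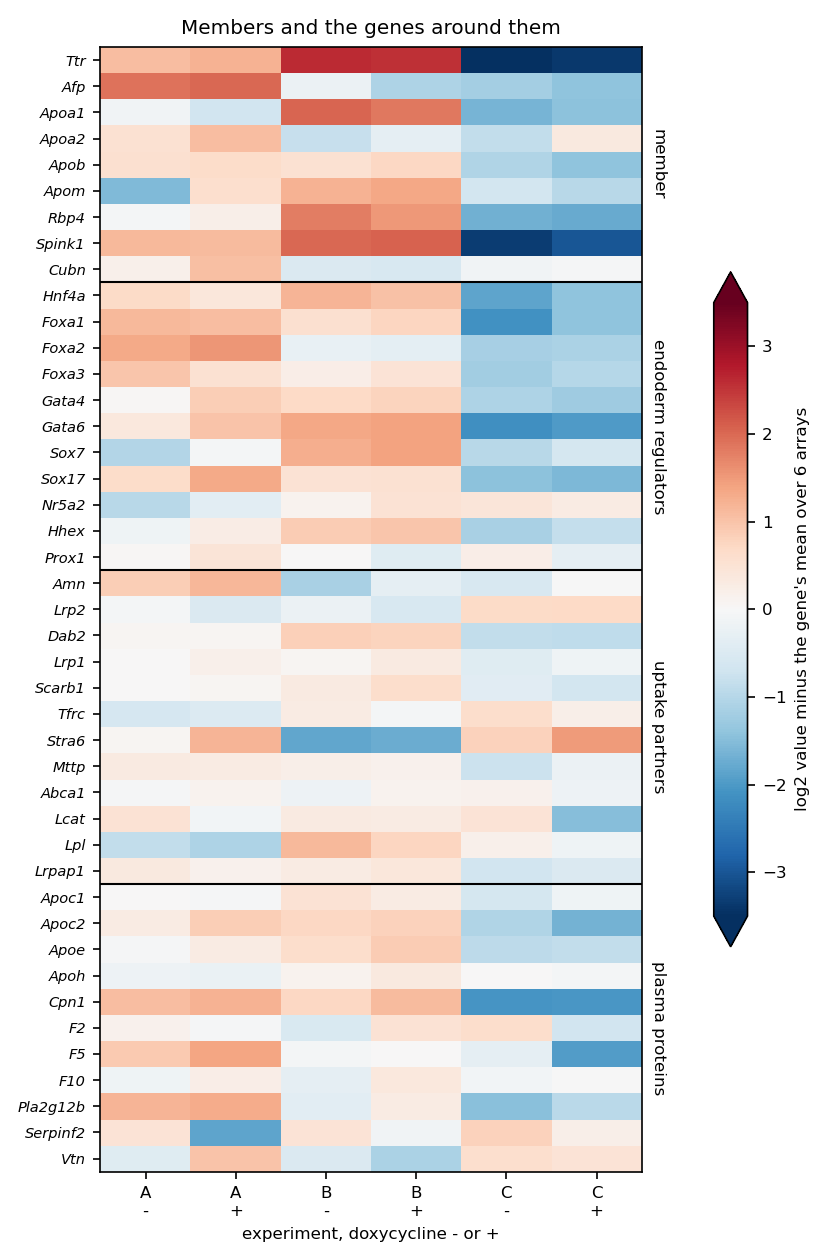
Log2 value of each tested gene minus its own mean over the 6 arrays, for the members and for the lists of endoderm regulators, uptake partners and plasma proteins; red is above and blue below the mean, and the end shades also hold larger differences. Ttr, Rbp4 and Spink1 share the blue C columns with Gata6, Hnf4a and Cpn1, while Stra6 is blue in B.

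The label was set against visceral endoderm markers outside the group. All 7 of these were tested, and their summed signal, mostly that of Lrp2 and Dab2, lay between 3225.6 and 4247.8 on the 6 arrays. Their mean log2 value was lowest in C: 8.35 then 8.38 in A, 8.19 then 8.19 in B, and 7.57 then 7.58 in C. Between C and B 2 were called lower (Dab2 and Hnf4a), 1 higher (Lrp2) and 4 not called: Amn, Ihh, Vil1 and the homeobox gene Rhox5. Rhox5 read 530.0 then 847.8 in A, 480.7 then 447.1 in B, and 432.1 then 483.2 in C. On both C arrays Hnf4a (9.0 and 18.8) was below the filter signal of 60.5. Ihh was below it on the array without doxycycline of each experiment, and lowest in C (34.3). Vil1 was below it on the array with doxycycline of each experiment, and lowest in C (4.7). The list as a whole did not share the order of Ttr. Of 11 parietal endoderm markers, 4 were lower and 2 higher in C than in B, and their summed signal was 11743.9 and 13512.6 in C against 21367.6 to 26568.3 elsewhere. The brightest of these were Sparc (C minus B -1.29) and Col4a1 (-1.28), both called. Of 6 tested definitive endoderm markers, 2, Trh (3.16) and Cxcr4 (2.10), were higher and 1, Pyy, named after its values were seen, was lower in C than in B. Of 3 tested hepatocyte markers, 1, the tryptophan-degrading enzyme gene Tdo2, was called: it read 333.1 then 206.7 in A, 2242.2 then 1623.0 in B, and 4.3 then 25.8 in C (-5.91, adjusted p = 0.000198 by limma).

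Markers of other lineages moved with the experiments as well. Of 6 blood markers, 2, the embryonic globins Hbb-bh1 and Hba-x, were called lower in C than in B, and 3 were called higher in B than in A. The summed blood signal was 36823.7 and 26318.0 in B, against 519.7 and 3083.7 in A and 1778.4 and 1674.5 in C. All 6 endothelial markers were lower in C than in B, with sums of 5522.0 and 5897.2 in B and 272.6 to 1505.2 elsewhere. Of 5 tested mesenchyme markers, 4 were lower, with sums of 13916.1 and 13804.3 in B and 2039.0 to 2453.1 elsewhere. Of 6 cardiac markers, 3 were lower, with sums of 3992.0 and 2151.6 in B and 586.4 and 504.7 in C. In the other direction, 5 of 6 neural and 4 of 6 pluripotency markers were higher in C. Neural sums were 4021.4 and 3223.3 in C, 2129.4 and 1286.7 in A, and 452.6 and 234.6 in B, and pluripotency sums 9501.2 and 9539.0 in C, 6031.7 and 4188.6 in A, and 1637.5 and 1235.8 in B. The part of these shifts in the members' differences was not tested. In none of these lists was a gene called with doxycycline.

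Averaged over the 9 genes, log2 values stood 0.40 and 0.80 above each gene's mean in A, 0.96 and 0.90 above it in B, and at -1.62 and -1.45 in C, with the doxycycline array second. The 10 genes whose log2 values followed that mean profile most closely were Ptpn18 and Gata6 (both r = 0.997), Padi3, Proca1 and Anxa4 (each r = 0.995), Elf1, Slc6a6 and Plp2 (each r = 0.992), Clic6 (0.990) and Ltbp1 (0.989), over 6 arrays. Of 5611 genes whose range was at least 1, 6.13% reached an r of 0.9, so a close match over so few arrays is common. Ptpn18, a tyrosine phosphatase gene, read 421.0 then 494.3 in A, 662.7 then 580.6 in B, and 95.4 then 100.7 in C. The chloride channel gene Clic6 read 1493.7 then 2145.8 in A, 2641.8 then 2960.0 in B, and 402.1 then 354.8 in C. Both had the order of Ttr, with B over A over C.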

How the data were processed

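RNA of the 6 samples was hybridised to 1-colour Affymetrix whole-genome mouse GeneChip arrays from 4.3 µg of total RNA each, per the labels' protocols. The authors deposited 1 signal intensity per probe set and array, made with MAS5 per the submitters' processing notes (version not given in the sources used here); probe-level values and the files' build were not used here. Annotation named 34945 probe sets for 1 gene, 932 for several and 9160 for none, and 34741 symbols were matched through RefSeq (GRCm38.p6).

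Values were taken as log2(signal + 18.8), the 20th percentile of all values, and 27022 probe sets with a mean at or above the 40th percentile were tested with limma 3.58.1 in R 4.3.3 (intensity trend, two-sided, Benjamini-Hochberg over all of them), after the script had been tested on simulated data. The doxycycline fit had no block, and the fit between experiments had a doxycycline term. A gene is led by its brightest probe set. Named beside the members were the 6 brightest tested plasma proteins, any uptake partner or regulator, the 2 brightest markers of each other list, and the 10 genes most like the members' mean profile. The members and lists were chosen with earlier results of these data known. The labels call the experiments biological replicates. Same-lettered arrays deviated together from their group means (r = 0.45, 0.67 and 0.66 in A, B and C), so the letters pair the samples, and a replicate block by letter was fitted as well. The number of arrays limits the precision. Without the block the members' doxycycline intervals had a median half-width of 2.36 log2 units, against 0.60 with it. The array of A without doxycycline stood apart, and its part in the precision was not tested. Alternatives were another offset, filter, normalization or variance model, each array or experiment left out, no doxycycline term, and each gene's other probe sets.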

Additional observations from a re-analysis of the deposited data

Results flagged for a closer look

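The doxycycline difference of Apom had opposite signs in A and C on both of its probe sets. On 1419096_at it was 2.11 in A and -0.33 in C, a gap of 2.44 on the log2 scale, and on 1419095_a_at it was 1.62 in A and -1.50 in C, a gap of 3.12. With 1 array per experiment and condition, the difference between the experiments was not tested. The value in A uses the array of A without doxycycline, whose Actb 3′ to 5′ ratio was 2.88 against at most 1.48 on the others, and the part of that in the difference was not tested.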

How the results depend on the processing

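With the replicate block the doxycycline comparison called 0 probe sets, as without it. The fit between experiments already holds the letter, so the block could change no call there. Doxycycline calls were 0 under each alternative run. Without the intensity trend, 0 members were higher and 0 lower in B than in A, and 3 were lower in C than in A. In each fit between experiments with 1 array left out, 1 experiment rests on 1 array. The share of all genes called was not counted for these fits. The member counts that follow are therefore no measure of how firm the calls are. With 1 array left out, the F test called 5 to 8 members, C was lower than B for 4 to 6 and lower than A for 4 to 7, and B was higher than A for 0 to 5 and lower for 0 to 2. Reversed by another probe set were Afp (1436880_at: C minus B 0.22, C minus A 0.88, B minus A 0.66; 1436881_x_at: B minus A 0.41), Apob (1457554_at: C minus B 0.36, C minus A 1.08) and Apoa1 (1419233_x_at: C minus A 0.14). Leaving out an array moved differences near 0 across it: Apoa2 C minus B ran from -0.030 to 0.66, Apob B minus A from -0.12 to 0.21 and Apom C minus A from -1.42 to 0.79. Doxycycline differences then ran from -1.71 to 2.00 for Ttr, -1.42 to 0.53 for Afp, -1.15 to 0.78 for Apoa1, -0.55 to 0.68 for Apob, -0.87 to 0.88 for Rbp4, -1.53 to 1.63 for Spink1 and -0.14 to 0.66 for Cubn, since an unbalanced set takes up the difference between experiments. With both arrays of an experiment left out, they reversed for Apob (0.14 without C), Apom (-0.095 without A), Rbp4 (0.11 without B, 0.0059 without C) and Spink1 (-0.0063 without C). Quantile normalization ended the call of Spink1 between B and A (adjusted p = 0.0628 by limma), and dropping the trend ended it too (0.141), as it did for Ttr (0.0969), Rbp4 (0.0742) and Apoa1 (0.0553). The cause was not tested. With 1 array left out, 1 residual degree of freedom remains in the fit between experiments, so the p-values of such fits rest on the spread pooled over all probe sets.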
